A study of Mus musculus with 34 samples.

Results

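Integrins, cadherins and the proteins that anchor them were followed across 10 groups of mouse cells. The members are 48 of the 8251 genes measured, taken by name: integrin subunits, numbered cadherins, protocadherins, desmogleins, desmocollins, catenins, desmoplakin (Dsp), plakoglobin (Jup) and plakophilin 1 (Pkp1). Cdh5 was left out by the rule. They comprise 12 integrin alpha subunits, 7 integrin beta subunits, 1 adaptor that carries an integrin name (Itgb1bp1), 12 cadherins, 2 protocadherins, 7 catenins and 7 desmosome genes. Each gene stands by its brightest probe set, the group of short probes that reports 1 transcript region. Another 8 probe sets of the protocadherin clusters match the rule but name several genes, and were not used.

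The study profiled pluripotent cells from mouse embryos and from culture beside somatic cells, on Affymetrix expression arrays. The inner cell mass (ICM, 3 arrays, mixed sex) was freed from the E3.5 blastocyst by immunosurgery. Primordial germ cells (PGC) were sorted by flow cytometry as positive for an Oct4/GFP reporter, with sexes mixed at E11.5 (4 arrays) and apart at E13.5 (3 female and 3 male arrays). Embryonic stem cells (ESC, male, passages 9 to 14, 2 arrays) and embryonic germ cells (EGC, male, from E12.5 germ cells, passage 19, 3 arrays) grew with LIF and serum. The E11.5 gonad with its mesonephros also gave the reporter-negative somatic fraction (SGM, mixed sex, 4 arrays), a mixture of cell types. Embryonic fibroblasts of E13.5 (MEF, mixed sex, passage 2, 6 arrays) grew in serum. Neural stem or precursor cells (NSC, mixed sex, 2 arrays) came from the subventricular zone of 8-week animals and were kept as neurospheres in EGF at passage 1. Blood stem or precursor cells (HSC, male, 2 arrays) were sorted from 8-week bone marrow as lineage-negative, CD34-, c-Kit+, Sca-1+ side population. All groups were C57Bl/6 except the ICM, whose replicates 2 and 3 came from C57Bl/6 x C3H F1 crosses, while replicate 1 had a further CD1 parent (an F1 of that cross x CD1). The labels call the replicates biological. They name no ESC or EGC line, so clones and lines cannot be told apart. In these bulk samples, fewer cells of a type and less RNA per cell cannot be told apart.

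Integrins are receptors of paired alpha and beta chains that hold cells to the extracellular matrix and, in blood cells, to other cells. Cadherins join like cells: their tails bind beta-catenin (Ctnnb1) or plakoglobin, and alpha-catenin (Ctnna1) links these to actin. In desmosomes, desmogleins and desmocollins are tied through plakoglobin and plakophilins to desmoplakin and the keratin filaments. Beta-catenin also carries the Wnt signal to the nucleus. Primordial germ cells are known to migrate to the gonad and then to gather with somatic cells there, a course in which E-cadherin and integrin beta 1 have known roles.

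Between E11.5 and E13.5 the members with the largest moves in male germ cells were Dsp and Ctnnb1, which fell, and Itgb5, which rose. The sequence just upstream of each start is therefore shown. Of the 48 members, 27 have a promoter in the RefSeq table of GRCm38.p6. Each stretch is the 250 bases before the start, 5′ to 3′ on the gene's strand. Capitals mark the GC box (GGGCGG or CCGCCC) and the E2 box (CAGGTG or CACCTG), the latter the core letters that Snail and Zeb repressors are known to bind. For Ctnnb1, which has 2 listed starts, the more upstream one was used.

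Dsp (chr13:38151044-38151293, + strand): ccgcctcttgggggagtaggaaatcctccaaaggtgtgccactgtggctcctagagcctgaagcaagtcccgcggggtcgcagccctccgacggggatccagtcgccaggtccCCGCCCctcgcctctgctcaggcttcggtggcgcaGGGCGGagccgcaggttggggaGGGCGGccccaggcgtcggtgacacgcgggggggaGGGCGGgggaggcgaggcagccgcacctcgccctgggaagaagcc
Ctnnb1 (chr9:120933150-120933399, + strand): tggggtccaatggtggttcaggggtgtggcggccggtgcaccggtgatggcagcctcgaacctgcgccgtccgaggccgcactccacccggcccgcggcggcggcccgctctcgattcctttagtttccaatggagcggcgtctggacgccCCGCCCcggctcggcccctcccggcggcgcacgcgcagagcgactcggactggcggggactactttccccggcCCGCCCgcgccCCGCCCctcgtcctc
Itgb5 (chr16:33829415-33829664, + strand): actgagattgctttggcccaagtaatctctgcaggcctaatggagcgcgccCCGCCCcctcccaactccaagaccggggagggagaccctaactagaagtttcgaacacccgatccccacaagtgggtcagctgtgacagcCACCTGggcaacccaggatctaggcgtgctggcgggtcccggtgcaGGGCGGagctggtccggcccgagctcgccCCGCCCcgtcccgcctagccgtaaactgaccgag

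The Dsp stretch holds 4 GC boxes and the Ctnnb1 stretch 3, with 0 E2 boxes in either. The Itgb5 stretch holds 3 GC boxes and 1 E2 box. A GC box in either orientation stands in 32.7% of all 32851 stretches of this length in the table, and in 17 of the 31 that belong to members (54.8%). An E2 box stands in 17.2% of all and in 3 of the 31 (9.68%). These matches describe letters only.

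Signals are log2 units, so a difference of 1 is 2-fold. A mean is given with its SD over arrays, a difference with the standard error (SE) that limma estimated. A member was called when its adjusted p, taken over all 8251 genes, was under 0.05. The table has no detection calls, so a low flat signal may not stand above background. The labels were checked against marker genes. Pou5f1, the gene behind the sorting reporter, averaged 9.38 to 10.67 in the 6 pluripotent groups and 4.38 to 5.77 in the somatic ones. SGM had the highest mean of Wt1, a gonad and kidney factor (8.52), but also of red cell haemoglobin (Hba-a1, 13.18). In HSC, Kit was 9.69 and Gfi1 7.81, while the blood marker Ptprc was only 5.68 and the myeloid gene Cd14 10.74. The germ cell marker Ddx4 reached only 6.75 in PGC E11.5. The 3 ICM arrays differ among themselves in trophectoderm genes: Eomes was 10.61, 10.35 and 6.84, Krt18 11.26, 11.14 and 7.57, and Krt8 11.18, 11.43 and 9.29 in replicates 1, 2 and 3. Values of ESC against ICM are therefore also given against ICM replicate 3 alone. The primitive endoderm genes differ too. Pdgfra (9.89, 9.66 and 10.67), Sox17 (7.82, 7.57 and 8.21) and Gata4 (8.55, 8.46 and 8.86) were highest in replicate 3. Dab2 (11.34, 12.63 and 9.64) and Gata6 (6.44, 6.61 and 6.37) were lowest there. Their part in the values against replicate 3 was not tested. On the MEF arrays, 11 genes exceeded 16, the ceiling of a 16-bit scanner; no member did.

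Across the 10 group means, 24 of the 48 members spanned at least 2-fold, against 60.7% of all genes, and 14 spanned at least 4-fold, against 29.4%. The median span was 1.02 for the members and 1.30 for all genes. HSC held the highest mean of 15 members (23.51% of all genes), and MEF and PGC E13.5 male of 8 each (13.49% and 14.69%). NSC held that of 7 (12.93%) and ESC of 0 (5.08%). Catenins (median span 1.87) and integrin beta subunits (1.44) varied more than integrin alpha subunits (0.72), of which 3 of 12 passed 2-fold. The widest spans were those of Cdh2 (4.6), Dsg2 (3.66), Dsp (3.53), Cdh16 (3.48) and Ctnnd2 (3.43).

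**Figure D1:**
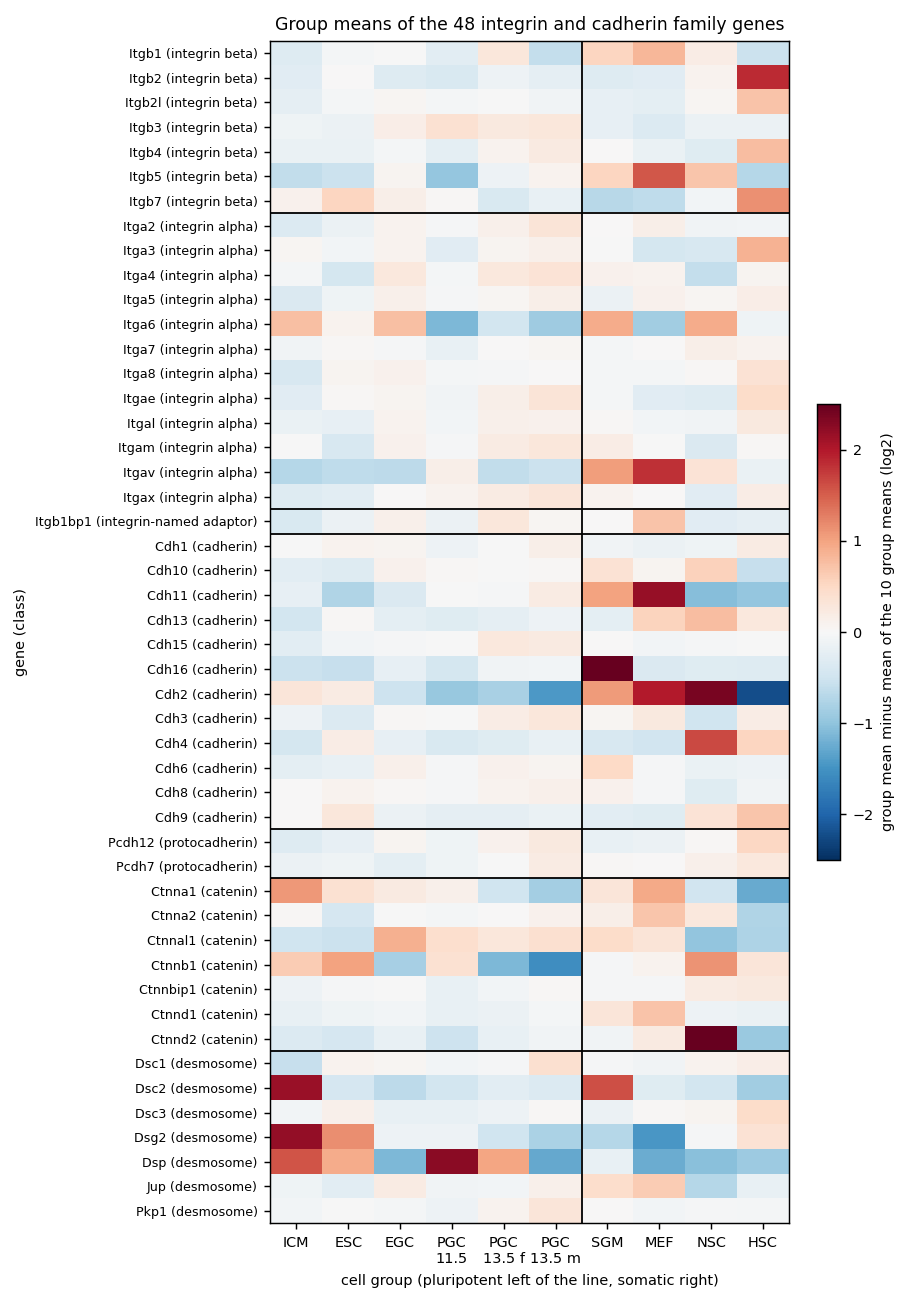
Colour gives each group mean minus the mean of that gene's 10 group means (log2), with genes in rows by class and cell groups in columns; the scale stops at 2.5 in either direction. Cdh16 in SGM, Ctnnd2 in NSC, Dsp in PGC E11.5 and Cdh2 in NSC and HSC stand out, while 24 of the 48 rows span under 2-fold.

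Itgb1, the beta chain shared by most matrix receptors, was bright in every array, from 11.92 to 13.62. Its means were highest in MEF (lowest, median and highest of 6 arrays 13.44, 13.48 and 13.62) and SGM (13.22, 13.11, 13.18 and 13.28). It was lowest in PGC E13.5 male (12.22, 11.92 and 12.05) and HSC (12.11 and 12.14). The remaining arrays were 12.31, 12.47, 12.43 and 12.38 in PGC E11.5, 12.95, 12.78 and 13.12 in PGC E13.5 female, and 12.34, 12.44 and 12.23 in ICM. ESC had 12.56 and 12.67, EGC 12.55, 12.58 and 12.85, and NSC 12.91 and 12.78. The 3 female germ cell arrays all lay above every male and every E11.5 array.

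Itgb5, which pairs with alpha V to bind vitronectin, was lowest in PGC E11.5 (8.68, 8.65, 8.75 and 9.17) and highest in MEF (lowest 11.09, median 11.34, highest 11.56). At E13.5 it was 9.97, 9.61 and 9.36 in female and 10.29, 9.74 and 9.55 in male germ cells, so no E13.5 array overlapped E11.5. EGC stood at 9.86, 9.87 and 9.83, ESC at 9.44 and 9.05, ICM at 9.26, 9.40 and 8.85, SGM at 10.56, 9.96, 10.29 and 10.49, NSC at 10.56 and 10.39, and HSC at 9.03 and 9.10. A second, dimmer Itgb5 probe set was also highest in MEF (8.69) but spanned only 0.94. There the lowest means were ICM (7.75), NSC (7.77) and HSC (7.80), and not PGC E11.5 (8.08).

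The leukocyte beta chain Itgb2 was 6.68 and 6.65 in HSC and no more than 4.93 in any other array. Itgb7, the beta chain of gut-homing lymphocyte integrins, was 9.54 and 9.27 in HSC, 8.90 and 8.69 in ESC, and 8.19 and 8.22 in NSC. Its SGM arrays (7.69, 7.51, 7.61 and 7.51) and MEF arrays (7.48 to 7.77, median 7.64) were lowest. Between these lay ICM (8.63, 8.19 and 8.28), EGC (8.49, 8.42 and 8.35), PGC E11.5 (8.29, 8.27, 8.50 and 8.11), PGC E13.5 female (7.82, 7.94 and 7.87) and male (7.96, 8.12 and 8.18). Itgb3, the beta chain of the platelet receptor, stayed between 5.26 and 6.32 over the 32 arrays, with its highest mean in PGC E11.5 (6.23; arrays 6.19, 6.32, 6.20 and 6.23). Itgb4, the laminin receptor chain of hemidesmosomes, ranged from a mean of 6.48 in NSC to 7.53 in HSC, and Itgb2l from 6.25 in MEF to 7.21 in HSC.

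**Figure D2:**
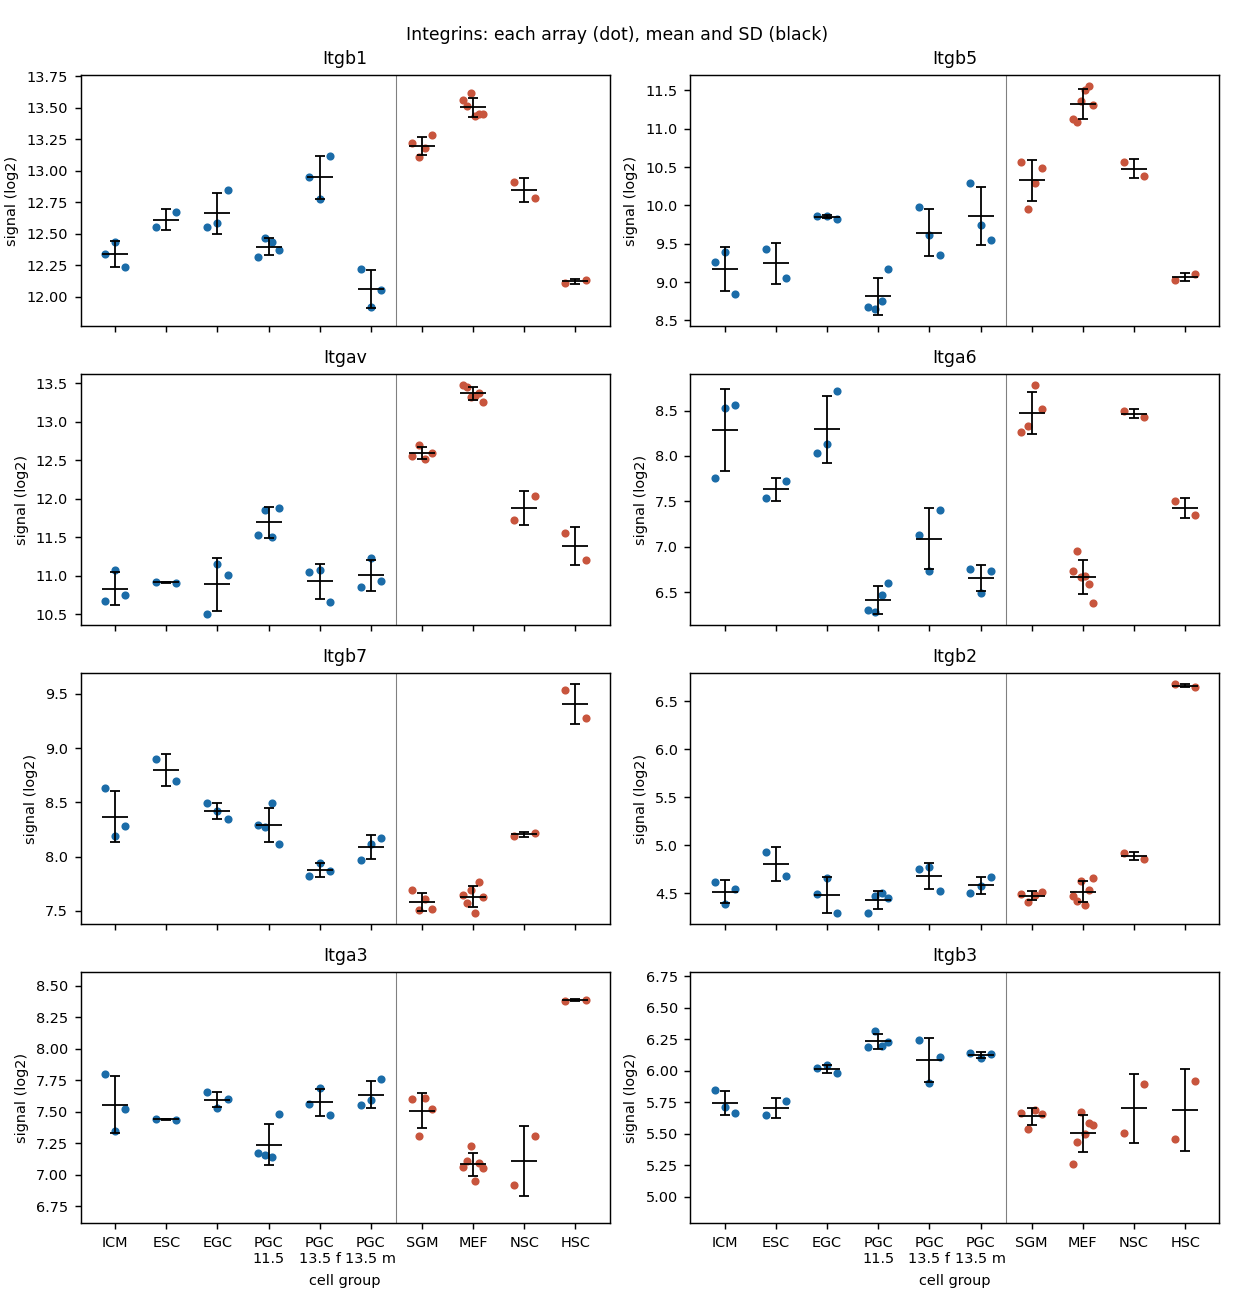
Signal (log2, y axis) of 8 integrin genes in each of the 32 arrays (dots; blue pluripotent, red somatic) by cell group (x axis), with the group mean and SD in black. Itgb2 stands apart in HSC at 6.68 and 6.65, Itgb5 and Itgav are highest in MEF, and Itga6 is lowest in PGC E11.5.

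Among the alpha chains, Itgav, which binds RGD sites in vitronectin and fibronectin, was highest in MEF (13.25 to 13.48, median 13.36) and SGM (12.56, 12.70, 12.51 and 12.60). PGC E11.5 (11.69 ± 0.21 SD, n = 4; highest array 11.88) lay above the E13.5 female (11.04, 11.08 and 10.66) and male arrays (10.85, 11.23 and 10.93). NSC had 11.73 and 12.04, HSC 11.56 and 11.21, ICM 10.67, 11.07 and 10.75, ESC 10.92 and 10.91, and EGC 10.50, 11.16 and 11.00. Itgav has 3 probe sets. The second in brightness was also highest in MEF (8.62) and SGM (8.31), with HSC lowest (7.24). The dimmest, whose means ran from 4.66 to 5.81, was highest in NSC and HSC (5.81 each).

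Itga6, a laminin receptor chain used as a stem cell surface marker, had a high and a low set of groups. The high arrays were SGM (8.26, 8.33, 8.78 and 8.52), NSC (8.50 and 8.43), EGC (8.03, 8.13 and 8.72) and ICM (7.76, 8.52 and 8.56), with ESC at 7.54 and 7.72. The low ones were PGC E11.5 (6.30, 6.28, 6.47 and 6.61), PGC E13.5 male (6.75, 6.49 and 6.74), MEF (6.39 to 6.95, median 6.67) and PGC E13.5 female (7.13, 6.74 and 7.40). HSC lay between at 7.51 and 7.35. Itga3, another laminin receptor chain, was 8.38 and 8.39 in HSC against means of 7.08 to 7.63 elsewhere.

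The other alpha chains moved little. Itga5, the fibronectin receptor chain, lay between 5.82 and 6.49 (median 6.29) over the 32 arrays. The leukocyte chains Itgal (6.46 to 7.08, median 6.83), Itgam (5.68 to 6.50, median 6.24), Itgae (4.66 to 5.92, median 5.25) and Itgax (6.82 to 7.66, median 7.30) were similarly flat. So were the collagen receptor chain Itga2 (5.48 to 6.31), Itga4 (4.59 to 5.68), the laminin receptor chain of muscle Itga7 (7.98 to 8.55) and Itga8 (5.48 to 6.48). The adaptor Itgb1bp1, which binds the tail of integrin beta 1, ranged from a mean of 7.46 in ICM to 8.56 in MEF.

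Cdh1, E-cadherin, is the adhesion molecule of epithelia and of pluripotent colonies. Its array values were nonetheless close in all groups, with means from 8.42 (MEF) to 8.77 (HSC) and single arrays from 8.33 to 8.82. Its only probe set read 8.63 and 8.67 in ESC and 8.82 and 8.71 in HSC. How well this probe set reports the transcript was not tested, so the flat signal is not a measure of equal E-cadherin levels. Cdh3, P-cadherin, ran from a mean of 7.92 in NSC to 8.7 in PGC E13.5 male (arrays 7.78 to 8.78, median 8.52).

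Cdh2, N-cadherin of neural and mesenchymal cells, had the widest span. It was 9.57 and 9.69 in NSC, 8.61 to 9.64 (median 9.26) in MEF and 7.41, 9.85, 8.41 and 7.55 in SGM, where arrays spread over more than 2 log2 units. It was 7.63, 7.10 and 7.95 in ICM, 7.30 and 7.60 in ESC and 6.70, 6.64 and 6.84 in EGC. Germ cells were lower still, with 6.66, 6.51, 5.9 and 6.14 at E11.5, 5.96, 5.9 and 7.43 in E13.5 females and 5.54, 6.28 and 5.65 in males. HSC was lowest, at 5.68 and 4.38.

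Cdh16, Cdh11 and Cdh4 peaked in different somatic groups. Cdh16, the kidney-specific cadherin of tubule epithelium, was 8.95, 8.29, 8.72 and 9.61 in SGM and no more than 6.12 in any other array. Cdh11, a mesenchymal cadherin, was 7.59 to 8.81 (median 7.91) in MEF and 6.67, 7.0, 7.01 and 6.76 in SGM, and had its lowest means in NSC (4.79) and HSC (4.89). Cdh4, R-cadherin of the nervous system, was 8.46 and 8.20 in NSC and 7.15 and 7.27 in HSC, with other means of 6.19 to 6.86. Smaller spans were seen for Cdh10 (means 4.71 to 5.86), the GPI-anchored Cdh13 (5.47 to 6.69), the muscle cadherin Cdh15 (5.76 to 6.30), Cdh6 (6.07 to 6.82), Cdh8 (4.23 to 4.66) and Cdh9 (3.14 to 4.13). Of the protocadherins, Pcdh12 ranged from 6.72 to 7.56 and Pcdh7 from 6.65 to 7.15. A dimmer probe set of Pcdh7 read 8.54 in MEF against 5.11 to 6.35 elsewhere.

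Ctnnb1 was high in NSC (12.61 and 12.87), ESC (12.61 and 12.64), ICM (12.12, 12.61 and 12.04) and PGC E11.5 (12.14, 12.33, 12.28 and 11.23). HSC had 11.96 and 11.86, MEF 11.28 to 12.00 (median 11.76) and SGM 11.04, 12.16, 11.82 and 11.36. EGC was low (10.73, 10.71 and 10.93), as were PGC E13.5 female (10.12, 10.31 and 11.04) and male (10.09, 10.16 and 9.92). No EGC or E13.5 germ cell array reached the lowest array of the other 7 groups, although both stood at 11.04 when rounded.

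Ctnna1 was highest in ICM (11.65, 12.24 and 11.43) and MEF (11.48 to 11.81, median 11.63) and lowest in HSC (9.46 and 9.40). The germ cell arrays were 10.86, 10.95, 10.98 and 10.44 at E11.5, 9.81, 10.15 and 10.60 in E13.5 females and 10.02, 9.87 and 9.63 in males. ESC had 11.13 and 11.02, EGC 10.95, 10.77 and 11.04, SGM 10.76, 11.21, 11.04 and 10.94, and NSC 10.35 and 10.08. Ctnnd2, a catenin of neurons, was 10.43 and 10.82 in NSC and no more than 8.67 elsewhere. Ctnnal1, an alpha-catenin relative, was highest in EGC (6.44, 6.68 and 6.58) and lowest in NSC (4.58 and 4.81). Ctnna2, the neural alpha-catenin, ran from a mean of 7.34 in HSC to 8.78 in MEF, Ctnnd1 (p120, which holds cadherins at the membrane) from 10.23 in PGC E11.5 to 11.14 in MEF, and Ctnnbip1, an inhibitor of beta-catenin, from 7.71 to 8.14. Both dimmer probe sets of Ctnna2 were highest in NSC (6.60 and 4.83), with MEF next (6.02 and 4.56).

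Dsp, the plaque protein that ties desmosomes to keratin, was highest in PGC E11.5 (10.03, 10.38, 9.89 and 9.19) and ICM (9.35, 10.06 and 8.16). ESC (8.48 and 8.60) and PGC E13.5 female (8.33, 8.45 and 9.01) were next, and then SGM (7.39, 7.33, 7.43 and 7.54). PGC E13.5 male (5.71, 6.70 and 6.61), EGC (6.24, 7.0 and 6.23), MEF (5.9 to 6.61, median 6.44), NSC (6.65 and 6.49) and HSC (6.65 and 6.77) were low. The 3 female and 3 male germ cell samples of E13.5 thus lay far apart on this probe set. A second Dsp probe set was dim (means 2.94 to 3.98) and did not show this pattern. It read 3.22 in PGC E11.5, 3.17 in female and 3.07 in male E13.5 germ cells, and was highest in ICM. The low ICM array is the one that was also low in Krt8 and Krt18, whose part in its Dsp value was not tested.

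Dsg2, the desmoglein of simple epithelia, was 9.19, 9.83 and 9.83 in ICM, 8.47 and 8.7 in ESC, and no more than 7.88 (HSC) elsewhere. HSC had 7.88 and 7.68, NSC 7.32 and 7.45, EGC 7.40, 7.33 and 7.12, and PGC E11.5 7.39, 7.54, 7.25 and 6.95. PGC E13.5 female had 6.70, 6.83 and 7.25, male 6.46, 6.78 and 6.59, SGM 6.70, 6.80, 6.63 and 6.70, and MEF 5.76 to 6.23 (median 5.89). Its dimmer probe set spanned only 0.84 and was lowest in ICM (4.95).

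Dsc2, the desmocollin of simple epithelia, was high in ICM (7.12, 8.74 and 7.02) and SGM (6.92, 7.18, 7.11 and 7.15). All other arrays lay between 4.43 and 5.39: ESC 4.89 and 5.24, EGC 4.73, 4.82 and 4.88, PGC E11.5 5.07, 5.19, 5.08 and 4.72, E13.5 female 5.06, 5.23 and 5.35, male 5.01, 5.15 and 5.20, MEF with a median of 5.15, NSC 4.88 and 5.16, and HSC 4.43 and 4.77. This probe set has a suffix that marks probes shared with other transcripts. The brightest probe sets of Itgb1, Itgav, Itga8, Itgae and Pkp1 carry the same suffix. A second Dsc2 probe set, without it, was dim (3.28 to 3.78) and showed no such peaks.

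Jup, which stands in both cadherin junctions and desmosomes, was highest in MEF (8.30 to 8.42, median 8.36) and SGM (8.23, 8.01, 8.18 and 8.23) and lowest in NSC (6.75 and 7.26). ICM had 7.68, 7.42 and 7.77, ESC 7.44 and 7.48, EGC 7.94, 8.02 and 7.81, and HSC 7.67 and 7.39. The germ cell arrays were 7.62, 7.58, 7.68 and 7.67 at E11.5, 7.84, 7.54 and 7.60 in E13.5 females, and 7.77, 7.88 and 7.88 in males. The skin desmosome genes spanned under 2-fold: Dsc1 ran from a mean of 4.28 in ICM to 5.26 in PGC E13.5 male, Dsc3 from 5.26 to 5.92 and Pkp1 from 7.83 to 8.25.

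**Figure D3:**
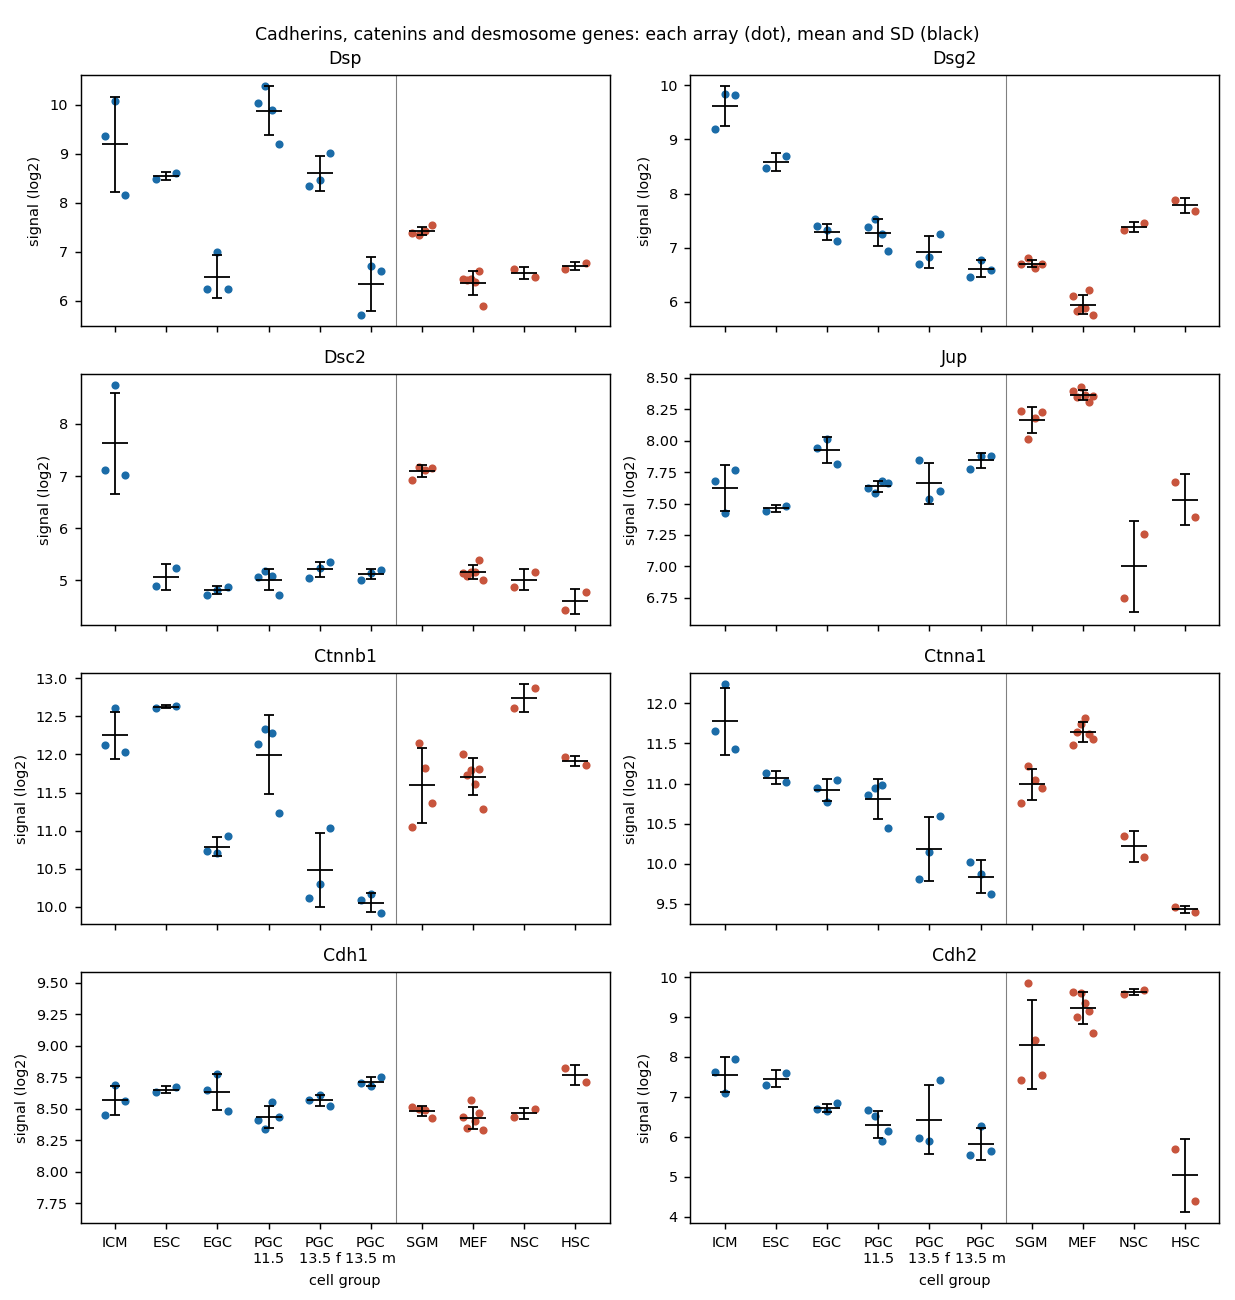
Signal (log2, y axis) of 8 cadherin, catenin and desmosome genes in each of the 32 arrays (dots; blue pluripotent, red somatic) by cell group (x axis), with the group mean and SD in black. Dsp falls from PGC E11.5 to PGC E13.5 male, Ctnnb1 is low in EGC and both E13.5 germ cell groups, and Cdh1 stays between 8.33 and 8.82 throughout.

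The mean of the 6 pluripotent groups was then set against the mean of the 4 somatic groups. Of the 48 members, 5 were higher, beside 29.1% of all genes, and 22 were lower, beside 34.9%. Dsp was 2.65-fold higher (difference 1.41 ± 0.15 SE; limma adjusted p = 5.19e-09). Cdh2 was 2.52-fold lower (-1.33 ± 0.21), Itgav 2.40-fold lower (-1.27 ± 0.07) and Itgb5 1.82-fold lower (-0.87 ± 0.09). On the second Itgb5 probe set the groups were mixed, with NSC (7.77) and HSC (7.80) below PGC E11.5 (8.08) and EGC (8.43). No member had all 18 pluripotent arrays above or below all 14 somatic arrays, beside 0.861% and 0.873% of all genes. With ICM replicate 3 alone, 6 members were higher and 21 lower, and Dsp stood at 1.23, Cdh2 at -1.27, Itgav at -1.28 and Itgb5 at -0.92, all called. The counts followed the choice of somatic groups, since without NSC and HSC 11 members were higher and 18 lower, of which 19 were among the 27 called with all groups. Centring each array on its median gave 9 higher and 20 lower.

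Several partners outside the members moved in this contrast. Of 15 measured cadherin and desmosome partners, 9 were higher and 3 lower, with Epcam, an epithelial adhesion molecule, at 3.70 ± 0.14 and the plakophilin Pkp2 at 1.60 ± 0.18. Of 12 regulators of the epithelial and mesenchymal state, 8 were lower, among them Zeb1 (-1.59 ± 0.07) and Tcf4 (-2.42 ± 0.10), while the epithelial splicing factor Esrp1 was higher (2.76 ± 0.09). Of 12 tetraspanins and lateral integrin partners, 1 was higher and 6 lower, of 25 integrin ligands 6 and 13, and of 22 integrin adaptors and linkers 1 and 10.

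PGC E11.5 and SGM come from the same dissected region, split by the reporter. Of the members, 4 were higher in the germ cells (23.2% of all genes) and 15 lower (26.9%), and the median difference was -0.13 for members and -0.04 for all genes. Dsp was 5.47-fold higher in germ cells (2.45 ± 0.28; limma adjusted p = 2.84e-08). The other 3 were Itgb7 (0.71 ± 0.09), Itgb3 (0.59 ± 0.10) and Dsg2 (0.57 ± 0.14). Cdh16 was 10.2-fold lower (-3.34 ± 0.16), Dsc2 4.2-fold, Itga6 4.16-fold (-2.06 ± 0.17), Cdh2 4.01-fold (-2.0 ± 0.39), Itgb5 2.85-fold and Cdh11 2.01-fold. Each of these 6 had all germ cell arrays below all SGM arrays, as did 17 of the 48 members (26.5% of all genes), while 5 had them all above (21.4%). On its second probe set Dsc2 differed by -0.20 and passed no test. The second Itgb5 probe set read 8.08 in PGC E11.5 and 8.49 in SGM, a smaller gap than on the brightest.

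Integrin ligands were lower in 17 of 25 and higher in 3, with Col1a2 at -3.79 ± 0.12 and Col4a1 at -3.78 ± 0.26. Of 22 integrin adaptors, 4 were higher and 7 lower. The kindlin Fermt2 (-1.30 ± 0.18) and the kinase scaffold Ilk (-0.94 ± 0.14) were lower and the blood cell kindlin Fermt3 higher (0.93 ± 0.14). The tetraspanin Cd63 differed by -4.38 ± 0.16. Of 12 regulators of the epithelial and mesenchymal state, 1 was higher, Esrp1 (3.24 ± 0.17). The other 9 that were called were lower, among them Twist1, a mesenchymal factor (-3.23 ± 0.17). Summed signal of 4 measured red cell markers was 13.28 to 13.42 in SGM and 9.07 to 10.10 in PGC E11.5; its part in these values was not tested.

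ESC were compared with the ICM, the tissue that such lines are derived from. The ICM also differed from ESC in strain, in its mixed sex and in being uncultured, and these cannot be told apart here. 5 members were higher in ESC (15.3% of all genes) and 7 lower (12.6%). Dsc2 was 5.92-fold lower (-2.57 ± 0.28; limma adjusted p = 5.82e-08) and Dsg2 2.04-fold lower (-1.03 ± 0.18), while Dsc1 was 1.59-fold higher (0.67 ± 0.13). Both Dsc1 means (4.95 in ESC and 4.28 in ICM) lie below the 10th percentile of signals on those arrays. That percentile was 5.31 to 5.36 in ESC and 5.21 to 5.30 in ICM. Ctnna1 was 1.62-fold lower (-0.70 ± 0.20; limma adjusted p = 0.0106). Against ICM replicate 3 alone, the array with the least trophectoderm signal, Dsc2 was -1.96, Dsg2 -1.24 and Dsc1 0.75, all called, and Ctnna1 was -0.35 and not called. The lone array is there assumed to vary like the other groups. Ctnna1 also lost its call without ICM replicate 2 (-0.47), without ESC replicate 2 (-0.64) or with the spread taken from these groups alone (limma adjusted p = 0.122). Dsp did not pass the test (8.54 against 9.19; limma adjusted p = 0.195), nor against replicate 3 alone (0.38).

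The other probe sets disagree here as well: on its second probe set Dsc2 differed by -0.15 and passed no test, and averaged over both probe sets Dsg2 differed by -0.20 and passed none. When the spread was estimated from ESC and ICM alone, 3 members were called and not 12. Of the partners, Epcam was lower in ESC (-1.70 ± 0.33), but against ICM replicate 3 alone it was -0.65 and not called. The basement membrane ligands Col4a1 (-2.35 ± 0.33), Nid1 (-1.67 ± 0.21) and Lama1 (-1.40 ± 0.28) were lower too, among 8 of 25 ligands that were lower and 1 that was higher. Against replicate 3 alone they were -3.28, -1.80 and -2.5, all called. Krt18 differed by -3.05 ± 0.57 and Krt8 by -1.74 ± 0.38, and against replicate 3 alone by -0.63 and -0.39, neither of them called.

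EGC and ESC are both male lines grown with LIF and serum, from different embryonic sources; this comparison shares the ESC arrays with the one before and the EGC arrays with the one after. 13 members were higher in EGC (20.8% of all genes) and 7 lower (18.6%). Dsp was 4.14-fold lower in EGC (-2.05 ± 0.37; limma adjusted p = 8.01e-05), Ctnnb1 3.56-fold (-1.83 ± 0.29; limma adjusted p = 1.79e-05) and Dsg2 2.46-fold (-1.30 ± 0.18). Ctnnal1 was 2.68-fold higher (1.42 ± 0.11). Its ESC mean (5.15) lies below the 10th percentile of signals on those arrays (5.31 to 5.36). In these 4 genes the 3 EGC arrays did not overlap the 2 ESC arrays. With so few arrays this was common: 23 of the 48 members had all EGC arrays above (35.3% of all genes) and 11 all below (30.8%). The counts are less firm than these 4 values: without ESC replicate 2 they became 5 higher and 6 lower, and without EGC replicate 1, 7 higher and 6 lower.

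Among the partners, the desmosome-associated Pkp4 (-1.64 ± 0.26) and the nectin Nectin3 (-1.24 ± 0.26) were lower in EGC and Epcam higher (1.16 ± 0.33), with 2 of 15 higher and 5 lower. Integrin ligands were higher in 11 of 25 and lower in 1, led by Ccn1 (1.89 ± 0.20) and Nid1 (1.63 ± 0.21). All 4 tetraspanins that moved were higher, with Cd63 at 2.22 ± 0.21 and Cd81 at 1.43 ± 0.18.

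EGC, from E12.5 germ cells, were also set against the E13.5 male germ cells, the only primordial germ cells labelled male. PGC E11.5, of mixed sex, was as near in stage. 7 members were higher in EGC (14.8% of all genes) and 7 lower (15.9%). Itga6 was 3.10-fold higher (1.63 ± 0.19; limma adjusted p = 2e-07), Ctnna1 2.12-fold (1.08 ± 0.18), Ctnnb1 1.66-fold (0.73 ± 0.26; limma adjusted p = 0.0323) and Dsg2 1.59-fold (0.67 ± 0.16). The Ctnnb1 call was lost after quantile normalization (0.47). It was also lost without PGC E13.5 male replicate 1 (0.75) or 3 (0.67) and without EGC replicate 1 (0.76), 2 (0.78) or 3 (0.66). The 14 calls became 9 without PGC E13.5 male replicate 1 or 3. Dsp was close in both groups (6.49 against 6.34). The PGC E11.5 means were 9.87 for Dsp and 11.99 for Ctnnb1. The linkers Fermt2 (1.87 ± 0.20) and vinculin, Vcl (1.28 ± 0.26), and the desmosome protein Perp (2.49 ± 0.31) were higher in EGC. The ligand Ccn2 (3.18 ± 0.20) and Cd63 (2.65 ± 0.19) were higher too, and the ligand Npnt was lower (-0.97 ± 0.18). Of 22 adaptors 4 were higher and 3 lower, of 25 ligands 4 and 3, and of 15 junction partners 5 and 0.

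The germ cells of E13.5 were compared with those of E11.5, for each sex; both comparisons share the 4 E11.5 arrays, which were of mixed sex. In females 10 members rose (16.3% of all genes) and 5 fell (15.2%). In males 17 rose (31.7%) and 6 fell (20.7%). The median over all genes was itself 0.15 in the male comparison, against 0.20 for the members. After centring, the female counts were 6 and 5.

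Dsp fell in both: 2.42-fold in females (-1.27 ± 0.31; limma adjusted p = 0.00208) and 11.6-fold in males (-3.53 ± 0.31; limma adjusted p = 4.83e-09). Ctnnb1 fell 2.85-fold in females (-1.51 ± 0.24) and 3.83-fold in males (-1.94 ± 0.24), and its E13.5 arrays all lay below the E11.5 ones. Ctnna1 fell 1.95-fold in males (-0.97 ± 0.17) and also in females (-0.62 ± 0.17), where it lost its call without female replicate 1 (-0.44) and from the compared groups alone. Itgb5 rose 1.78-fold in females (0.83 ± 0.18) and 2.07-fold in males (1.05 ± 0.18). Its second probe set moved less, from 8.08 at E11.5 to 8.40 in females and 8.41 in males. Itgav fell 1.70-fold in females (-0.77 ± 0.14), but differed by -0.20 on its plain probe set and -0.09 on its second-brightest one, neither of them called. In males it differed by -0.69 ± 0.14 and lost its call after quantile normalization (-0.31).

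On its brightest probe set Itgb1 moved in opposite directions, up in females (0.55 ± 0.09) and down in males (-0.33 ± 0.09). The male value was -0.04 and not called after quantile normalization. The second probe set of Itgb1 read 9.30 at E11.5, 9.32 in females and 8.48 in males, so the female rise was not seen there. Without PGC E11.5 replicate 2 the female comparison called 9 members and not 15. The promoter stretches printed above belong to the 3 genes with the largest male differences, Dsp, Ctnnb1 and Itgb5.

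Other junction genes fell over the same interval. Of 15 cadherin and desmosome partners, 5 fell and 1 rose in females, and 8 fell and 2 rose in males. Lmo7 fell in females (-1.66 ± 0.30) and males (-2.5 ± 0.30), as did Pkp4 (-0.93 ± 0.21 and -1.5 ± 0.21). Perp, a desmosome membrane protein, fell by 2.02 ± 0.29 and the tight junction scaffold Tjp1 by 1.23 ± 0.22 in males. Vcl, which links both integrins and alpha-catenin to actin, fell in females (-1.64 ± 0.25) and males (-2.67 ± 0.25). Its list went both ways: of 22 integrin adaptors, 2 rose and 5 fell in females, and 7 rose and 6 fell in males. Esrp1 fell as well (-1.57 ± 0.18 and -1.39 ± 0.18). Of the 12 regulators, 0 rose and 1 fell in females, and 4 rose and 2 fell in males. Tetraspanins rose in 4 of 12 in females and 6 of 12 in males, with 0 falling. Summed red cell marker signal was 10.01 to 10.12 in female and 10.29 to 10.68 in male E13.5 germ cells, against 9.07 to 10.10 at E11.5; its part in these values was not tested.

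**Figure D4:**
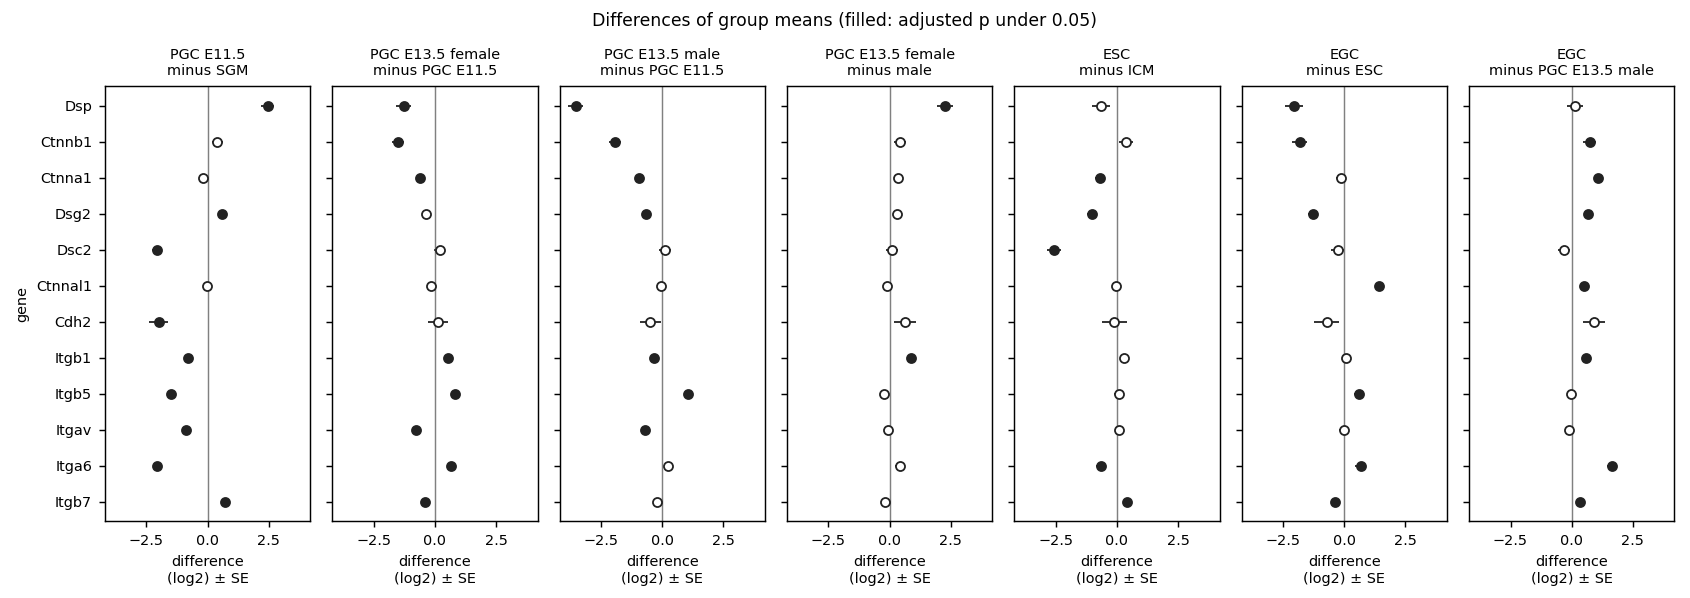
Difference of group means (log2, x axis, bars ± SE; filled points have an adjusted p under 0.05) for 12 members (y axis) in 7 comparisons. Dsp lies at 2.45 in PGC E11.5 over SGM, -3.53 in male E13.5 over E11.5 germ cells and 2.26 in female over male germ cells.

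The 2 sexes at E13.5 were compared directly. Of the members, 2 were higher in females (6.29% of all genes) and 1 lower (2.33%). Dsp was 4.78-fold higher in females (2.26 ± 0.33; limma adjusted p = 3.6e-05), with female arrays from 8.33 to 9.01 and male arrays from 5.71 to 6.70. Itgb1 was 1.84-fold higher (0.88 ± 0.10; limma adjusted p = 3.47e-07). Its second probe set also read higher in females (9.32 against 8.48). Dsc1 was 1.35-fold lower in females (-0.43 ± 0.12; limma adjusted p = 0.0192), a call lost without female replicate 3 (-0.38) or male replicate 3 (-0.30), and from these groups alone (limma adjusted p = 0.0937). Its means (4.83 in females and 5.26 in males) lie below the 10th percentile of signals on those arrays (5.36 to 5.41 and 5.42 to 5.44). Ctnnb1 (0.43 ± 0.26) and Ctnna1 (0.34 ± 0.18) did not pass the test. The linkers Fermt2 (1.44 ± 0.20), Vcl (1.03 ± 0.26) and Lims1 (0.76 ± 0.19) and the ligand nephronectin, Npnt (1.70 ± 0.18), were higher in females. 4 of 22 adaptors, 4 of 25 ligands and 2 of 15 junction partners were higher, and 0 of each lower.

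Between the embryonic somatic groups, 13 members were higher in MEF (22.2% of all genes) and 9 lower (27.6%), and 17 and 7 after centring. Cdh11 was 2.25-fold higher in MEF (1.17 ± 0.17) and Itgb5 2.00-fold (1.00 ± 0.15). Cdh16 was 9.61-fold lower (-3.26 ± 0.15; limma adjusted p = 1.32e-16), Dsc2 3.81-fold (-1.93 ± 0.20), Itga6 3.5-fold (-1.81 ± 0.15) and Dsp 2.08-fold (-1.05 ± 0.26). On its plain probe set Dsc2 differed by -0.21 and passed no test. The keratins Krt18 (-3.08 ± 0.40) and Krt8 (-2.04 ± 0.27) and Epcam (-2.07 ± 0.23) were lower in MEF as well, while Perp (4.19 ± 0.24) and Lmo7 (2.22 ± 0.25) were higher. Of 15 junction partners 4 were higher and 8 lower, and of 12 regulators 4 and 4. Vcl (3.19 ± 0.21), Ccn2 (6.04 ± 0.16), tenascin, Tnc (4.39 ± 0.12), and the tetraspanin Cd9 (2.63 ± 0.18) were higher. Itgb1 was higher (0.31 ± 0.08), but lower after quantile normalization (-0.29).

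NSC were set against the mean of the other 3 somatic groups. 9 members were higher (28.1% of all genes) and 17 lower (30.8%). Ctnnd2 was 6.75-fold higher (2.75 ± 0.12; limma adjusted p = 1.26e-16), Cdh2 4.31-fold (2.11 ± 0.43), Cdh4 3.41-fold (1.77 ± 0.10) and Ctnnb1 2.00-fold (1.00 ± 0.25). The only probe set of Ctnnd2 is not a plain one, so its value could not be checked on another. Cdh11 was 3.5-fold lower (-1.81 ± 0.20), Cdh16 2.05-fold and Jup 2.03-fold (-1.02 ± 0.10). The NSC mean of Cdh11 (4.79) lies below the 10th percentile of signals on those arrays (5.26 to 5.31). Cdh2 overlapped, since the NSC arrays lay within the range of MEF and SGM. Of 22 adaptors 4 were higher, Fermt2 (2.07 ± 0.19) among them, and 10 lower, with Vcl at -2.85 ± 0.25. Of 12 regulators 2 were higher, among them Zeb1 (2.85 ± 0.15), and 6 lower, with Twist1 at -3.14 ± 0.18. Of 15 junction partners 3 were higher, with Pkp4 at 2.74 ± 0.22, and 4 lower, with Perp at -3.43 ± 0.29. Of 25 ligands 4 were higher and 15 lower, with Col1a2 at -5.83 ± 0.13.

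HSC had the most calls, 17 higher (36.8% of all genes) and 17 lower (27.6%) than the mean of the other somatic groups, or 12 and 18 after centring. Itgb2 was 4.12-fold higher (2.04 ± 0.09; limma adjusted p = 1.09e-16), Itgb7 3.03-fold (1.60 ± 0.10), Itga3 2.22-fold (1.15 ± 0.11) and Dsg2 2.15-fold (1.10 ± 0.15). Cdh2 was 16.3-fold lower (-4.02 ± 0.43; limma adjusted p = 4.41e-09). This size is not firm: the HSC arrays (5.68 and 4.38) lie around and below the 10th percentile of signals on those arrays (5.39 and 5.47), and with 1 array left out the difference ran from -4.67 to -3.37. Ctnnd2 was 3.51-fold lower (-1.81 ± 0.12), Cdh11 3.19-fold (-1.67 ± 0.20) and Itgb5 3.12-fold (-1.64 ± 0.18). Ctnna1 was 2.86-fold lower (-1.52 ± 0.17), Itgav 2.35-fold (-1.23 ± 0.14), Dsc2 2.23-fold (-1.16 ± 0.24) and Ctnna2 2.17-fold (-1.12 ± 0.12). On the second-brightest probe set of Itgav the difference was -1.09 and called, while on its dimmest one, the only plain one, it turned to 0.51. Dsc2 turned to 0.29 on its plain probe set. After quantile normalization Itgav stood at -0.69. Summed signal of 6 macrophage markers was 11.39 to 11.53 in HSC and at most 10.34 elsewhere, with Lyz2 at 9.15 but Adgre1 at 6.44 and Csf1r at 7.05; its part in the Itgb2 and Itgb7 values was not tested.

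Among the linkers, the kindlins divided: Fermt3, of blood cells, was higher in HSC (2.93 ± 0.16) and Fermt2 lower (-4.26 ± 0.19). Vcl (-3.19 ± 0.25) and Tjp1 (-2.83 ± 0.23) were lower, and the leukocyte tetraspanin Cd53 higher by 3.36 ± 0.17. Tnc (-5.26 ± 0.15) and Ccn1 (-4.91 ± 0.17) led the 15 of 25 ligands that were lower, against 5 that were higher.

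21 members have more than 1 probe set, and for some the choice decides what is seen. The brightest and the second probe sets of Itgb1 both placed MEF highest and PGC E13.5 male lowest. They differed in SGM, which on the second (9.63) stood below NSC (10.58), ESC (10.11) and ICM (9.67). Ctnnd1 was highest in MEF on both of its own (11.14 and 8.40). Dsp, Dsc2, Dsg2, Itgav, Itgb5, Itgb7, Pcdh7, Cdh4, Ctnna1 and Ctnna2 had a pattern on 1 probe set that another did not show. Their values here are those of the brightest one unless another is named. Itgb7 was highest in HSC on both of its own (9.41 and 6.59). The dimmer probe sets of Cdh4 spanned only 0.49 and 0.40, and that of Ctnna1 0.45. The dimmer one of Itga3 was also highest in HSC (6.74) but spanned only 0.51.

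**Figure D5:**
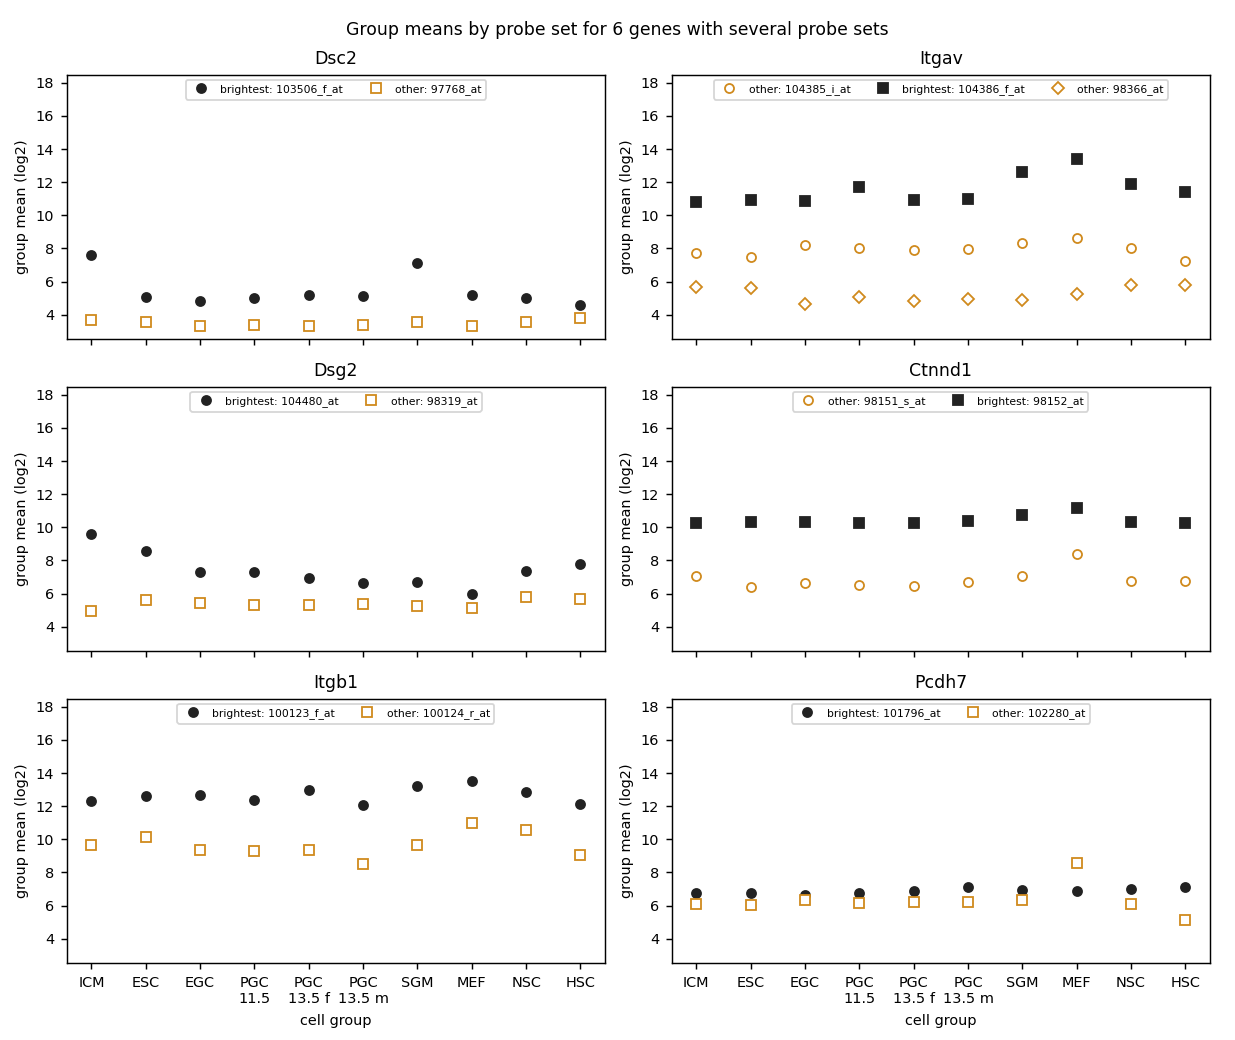
Group means (log2, y axis) by cell group (x axis) for 6 genes, with the brightest probe set filled and the others open. The peaks of Dsc2 in ICM (7.63) and SGM (7.09) are missing on its dim probe set, and the dimmer probe set of Pcdh7 is high in MEF alone (8.54).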

How the data were processed

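RNA of each sample was purified with DNase treatment, amplified by repeated in vitro transcription and labelled with biotin, per the labels' protocols. The deposited table holds log2 values, which the authors made with RMA per the submitters' processing notes (no version given). It has 34 columns. ESC replicate 3 and PGC E11.5 replicate 5 equal the mean of the earlier replicates of their group within 1e-06 and were left out, leaving 32 arrays. Of 12488 probe sets, 66 are controls, 10833 name 1 gene, 396 several and 1193 none. Symbols of 10817 were updated by gene ID (GRCm38.p6), and the brightest probe set of each gene was kept (8251 genes, no dim filter). Group means were fitted with limma 3.58.1 (R 4.3.3; lmFit and eBayes) over all 10 groups, (residual df 22, prior df 4.78; the residual SD had a median of 0.161). p-values are two-sided, with Benjamini-Hochberg adjustment over 8251 genes; the fit was tested on simulated data. The number of arrays limits the precision. Members and lists were chosen with earlier results of these data known. All members are given with their levels. Per comparison, those named were up to 8 rises and 8 falls of at least 2-fold among called members, filled up to 4 with the largest other calls, and at most 4 genes per other list; further values of listed members are added where a result turns on them. Of the lists, 22 of 36 integrin adaptors, 25 of 28 ligands, 12 of 12 tetraspanins, 15 of 32 cadherin and desmosome partners and 12 of 15 regulators were measured. Alternatives were other probe sets, quantile normalization, median centring, a filter on the dimmest 33% of genes, only the compared groups, all 34 columns, a replicate block, array weights and each array left out. Added after the data were seen were fits without MEF, without NSC and HSC, and with ICM replicate 3 alone.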

Additional observations from a re-analysis of the deposited data

Results flagged for a closer look

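Among 144 groups of 4 to 10 arrays, 8 held 1 array far from the rest by Dixon's ratio (its gap to the nearest other array over the group's range), where chance gives about 1 in 20. Dsp was 5.9 in MEF replicate 6 against 6.39 to 6.61 in the others (ratio 0.693), and Dsc3 was 5.79 in MEF replicate 5 against 5.35 to 5.51 (ratio 0.638). In PGC E11.5, Itga3 was 7.48 in replicate 4 against 7.14 to 7.17 (ratio 0.909), and Cdh8 was 4.38 in replicate 1 against 4.53 to 4.55 (ratio 0.876). In SGM, Itgb2l was 6.18 in replicate 3 (ratio 0.941), Itga8 6.05 in replicate 4 (ratio 0.848), Cdh15 6.18 in replicate 4 (ratio 0.989) and Pcdh7 6.77 in replicate 2 (ratio 0.92). The called differences of Dsp that involve MEF were called without MEF replicate 6 as well.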

How the results depend on the processing

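Of the 59 differences chosen by the naming rule, 49 kept their direction and their call under every alternative that tested them. Plain probe sets covered 46 members, as Itgb1 and Ctnnd2 have none. Of 1195 values, 1175 kept both direction and call, 18 lost the call and 2 reversed. The reversed ones were those of HSC against other somatic groups on plain probe sets: Itgav (0.51) and Dsc2 (0.29). Among differences given beside these, Itgb1 in MEF against SGM reversed after quantile normalization (-0.29), and Itgb1 (-0.04) and Itgav (-0.31) in male E13.5 against E11.5 germ cells lost their calls there; the cause was not tested. Counts of called members stayed within 1.5 times of the reported ones in 206 of 219 cases. With the dimmest 33% of genes removed, only 23 members were tested, and the counts were 13 for pluripotent against somatic, 12 for PGC E11.5 against SGM, 5 for ESC against ICM, 11 for EGC against ESC, 8 for EGC against PGC E13.5 male, 13 for NSC and 19 for HSC. From the compared groups alone, ESC against ICM gave 3. With 1 array left out at a time, EGC against ESC gave 11 to 18, EGC against PGC E13.5 male 9 to 13, and PGC E13.5 female against E11.5 9 to 18. Replicate numbers carry no stated meaning across groups, and residuals of like-numbered arrays correlated from -0.566 to 0.521, so the numbers were not taken as pairs. With the replicate block the counts were 25 for pluripotent against somatic, 12 for ESC against ICM, 21 for EGC against ESC, 26 for PGC E13.5 male against E11.5, 20 for MEF against SGM and 32 for HSC. Groups of 2 arrays and probes near background limit small differences most.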
